A study of Mus musculus with 21 samples.

Results

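Among the stromal cells of an injured mouse colon, 209 of 11376 kept cell barcodes (1.84%, 95% exact binomial interval 1.60% to 2.10%) carried transcripts of at least 3 of 6 genes, Ptx3, Ptn, Inmt, Gdf10, Myoc and Fst. These barcodes, called Ptx3 Gdf10 Fst fibroblasts here, were chosen by a rule on the counts themselves. Kept barcodes had 500 genes or more and no more than 10% of counts from mitochondrial genes. A barcode was a member when at least 3 of the 6 genes had 1 or more UMIs (unique molecular identifiers, each standing for 1 captured transcript). Fewer than 2 of the 4 mesothelial genes Msln, Upk3b, Lrrn4 and Upk1b were allowed. That last condition removed 3 of 212 barcodes, 204 of the members had none of the 4 mesothelial genes and 5 had 1 of them.

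The series holds 21 samples of C57BL/6 mouse colon. The cells came from 1 droplet library of gp38+CD90+ cells (gp38 is the product of Pdpn and CD90 that of Thy1) from colon lamina propria of a wild type female of 12 weeks. The animal received 2% dextran sulfate sodium (DSS), a detergent given in drinking water that injures the colon lining, and the library is labelled D3. Its labels describe the cells as total iMSC, with no subset sorted out. Open chromatin came from 8 ATAC-seq libraries of males of 12 weeks, 2 for each of 4 sorted populations labelled Myofibroblast, CD34-CD138+, CD34 SP and MRISC (the last stands for the Map3k2-regulated stromal cells of the title), with 1 deposited peak list per population. No DSS treatment or day is labelled for these 8 libraries. The 12 bulk colon RNA samples were not analysed here, and no untreated single-cell library was used, so nothing below compares injured with uninjured tissue.

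Fibroblasts of the gut wall make the collagen matrix and also secrete the signals that set where epithelial stem cells divide and where they mature. BMP ligands favour maturation, and BMP antagonists, R-spondins and EGF family ligands favour growth near the crypt base. The outer, Cd34-expressing layers around vessels and in the submucosa carry the transcription factor gene Ebf1, and such cells are known sources of chemokines and of hyaluronan, a large sugar polymer of loose matrix.

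Members were set against 1230 other barcodes with an Ebf1 UMI and against all 11167 other kept barcodes. The members were the deeper group, at 8268 UMIs and 2550 genes for the median barcode (lowest 850, highest 19996 UMIs) against 5960 UMIs and 2172 genes in the other Ebf1-positive barcodes and 6035 UMIs and 2285 genes in all others. A rule that asks for several detected genes favours deep barcodes, and the share of members was 1.01% when each barcode was thinned to 3000 UMIs. Ebf1 itself, which the rule did not use, had a UMI in 189 of the 209 members (90.4%, 85.6% to 94.1%) and in 11.0% of all other barcodes. Levels below are pooled UMIs of a group scaled to CPM (counts per 1e6 counts), and shares are barcodes with a UMI. All barcodes came from a single library, so intervals cover counting error only, there is no replicate check, and no p-value was made.

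The 6 genes that define the members encode unlike proteins. Ptx3 encodes the secreted pentraxin 3, a soluble defence protein that also crosslinks hyaluronan matrix. Fst encodes follistatin, a secreted antagonist of activins, and Gdf10 encodes a BMP-related ligand. Ptn encodes pleiotrophin, a heparin-binding growth factor, Myoc the secreted protein myocilin, and Inmt a methyltransferase of small indole amines. In the GENCODE annotation of GRCm38, Ptx3 lies at chr3:66219910-66225805 on the plus strand, Fst at chr13:114452290-114458951 on the minus strand and Gdf10 at chr14:33923587-33937983 on the plus strand. Ptn lies at chr6:36714929-36810220 and Inmt at chr6:55170626-55175043, both on the minus strand, and Myoc at chr1:162639155-162649693 on the plus strand.

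Promoter sequence is shown for 4 of the 6, Gdf10 and Inmt because they had a peak within 1 kb of the start in 2 of the sorted populations only, Ptx3 because its transcripts were concentrated in members, and Myoc because it was seldom found with Ptx3 or Fst. The sequences are those of RefSeq on GRCm38.p6, in which 5 of the 6 genes matched, read 5′ to 3′ on the gene's strand and ending just before the RefSeq start. Capitals mark the motifs found when both strands were searched. The EBF core was CCCNNGGG and the C/EBP word TTNCNNAA. The AP-1 word was TGANTCA and the CRE word TGACGTCA. The letters TATAAA were taken as a TATA box. A GC box was written as GGGCGG, and the last motif was the CCAAT box.
Gdf10, chr14:33923337-33923586, plus strand: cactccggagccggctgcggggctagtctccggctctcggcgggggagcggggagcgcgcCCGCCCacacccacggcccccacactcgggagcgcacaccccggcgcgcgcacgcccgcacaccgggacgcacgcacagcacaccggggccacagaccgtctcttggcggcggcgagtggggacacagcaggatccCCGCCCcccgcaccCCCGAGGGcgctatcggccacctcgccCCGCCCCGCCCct
Inmt, chr6:55175044-55175240, minus strand, without the 53 bases next to the RefSeq start that GENCODE places inside the gene: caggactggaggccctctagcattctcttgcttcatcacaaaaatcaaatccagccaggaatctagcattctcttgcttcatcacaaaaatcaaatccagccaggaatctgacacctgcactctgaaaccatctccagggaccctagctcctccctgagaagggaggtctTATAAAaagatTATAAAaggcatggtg
Ptx3, chr3:66219637-66219886, plus strand: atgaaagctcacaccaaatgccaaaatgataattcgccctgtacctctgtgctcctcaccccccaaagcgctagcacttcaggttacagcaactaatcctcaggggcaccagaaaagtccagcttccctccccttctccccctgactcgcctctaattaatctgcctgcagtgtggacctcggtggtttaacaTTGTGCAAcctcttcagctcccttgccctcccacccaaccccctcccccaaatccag
Myoc, chr1:162638900-162639149, plus strand: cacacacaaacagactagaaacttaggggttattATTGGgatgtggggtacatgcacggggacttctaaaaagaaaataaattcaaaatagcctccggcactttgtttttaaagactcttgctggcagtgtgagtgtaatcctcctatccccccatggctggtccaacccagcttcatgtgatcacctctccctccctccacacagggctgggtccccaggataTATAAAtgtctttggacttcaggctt
The 4 promoters shared little. Over the 250 bases before the start, that of Gdf10 had 78.8% G and C, 4 GC boxes, of which the last 2 overlap by 1 base, and an EBF core, whereas those of Inmt, Ptx3 and Myoc had 48.0%, 54.0% and 46.8% G and C. The promoter of Inmt holds a stretch of 49 bases in 2 copies, starting 235 and 189 bases before the start, and 2 TATA boxes. Of 32851 promoters of the same length, 11.8% held an EBF core, 32.7% a GC box, 12.4% a TATA box, 36.8% a C/EBP match and 33.9% a CCAAT box. AP-1 and CRE words, held by 6.75% and 1.55% of promoters, were in none of these 4. A match is a description of letters and not a bound site.

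The values that chose the members are given as a description only. Ptx3 stood at 1596 CPM in members, with a UMI in 57.9% of them, at 104 CPM in the other Ebf1-positive barcodes and at 16.1 CPM in all others, where 2.98% had a UMI. Over single members the Ptx3 level ran from 0 through a median of 176 to 17124 CPM, and the 10 members with most UMIs held 37.7% of its UMIs. Ptx3 was thus very uneven among members. Inmt was the gene most often detected, in 81.8% of members (413 CPM, against 58.2 CPM in other Ebf1-positive and 9.13 CPM in all other barcodes), followed by Gdf10 in 74.2% (235, 28.3 and 5.27 CPM). Both were less uneven than Ptx3, since the 10 leading members held 19.9% of the Inmt and 20.5% of the Gdf10 UMIs. Fst was detected in 57.4% (210, 23.4 and 5.75 CPM), Ptn in 56.5% (501, 121 and 19.1 CPM) and Myoc in 19.1% (60.3 and 2.54 CPM in members and in all others). Over other Ebf1-positive barcodes Myoc was 4.02-fold higher, and 1.86-fold with at least 4 of the 6 genes asked for. Empty droplets, which show the free RNA of the suspension, held 55.7 CPM of Ptx3 and 5.09 to 29.4 CPM of the other 5 genes, in each case more than all other kept barcodes and less than the members.

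**Figure D1:**
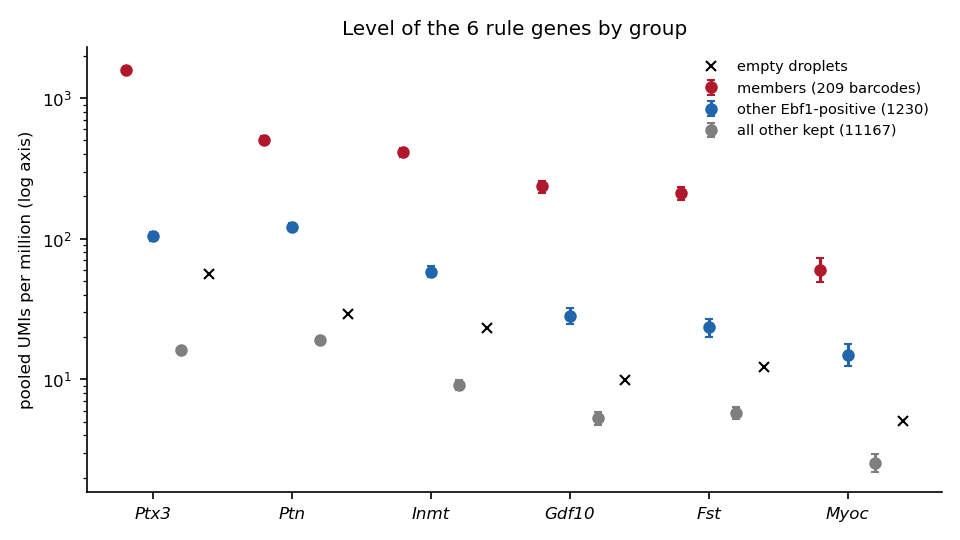
Pooled level of the 6 genes that define the members, in CPM on a log axis, with 95% Poisson intervals, in 209 members, 1230 other Ebf1-positive barcodes and 11167 other kept barcodes, and in empty droplets (crosses, no interval). Members run from 60.3 CPM for Myoc to 1596 CPM for Ptx3, and these genes were used to choose them.

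No member had all 6 genes. By number detected, 129 members had 3 genes, 62 had 4 and 18 had 5, and just outside the threshold stood 219 barcodes with 2. The label's own trio was not the rule for members, since Ptx3, Gdf10 and Fst were found together in 52 of the 209. The most frequent sets were Ptx3, Inmt, Gdf10 and Fst (24 members), Ptn, Inmt and Gdf10 (22), and Ptx3, Inmt and Fst, or Ptx3, Inmt and Gdf10 (15 each).

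The label of fibroblasts was set beside markers outside the rule. Col3a1, a main collagen of fibroblasts, had a UMI in every one of the 209 members, Cd34 in 92.8% and Pdgfra in 77.0%, and the sort genes Pdpn and Thy1 in 72.2% and 62.2%. The cells had been sorted on the products of those last 2 genes. Collagen detection does not set members apart, since 99.96% of all other kept barcodes had 2 or more of 13 collagen genes. Cd34 had a UMI in 73.0% of barcodes with none of the 6 rule genes. Of the 8 epithelial markers none reached 20 CPM in members, and their sum was 16.1 CPM against 149 CPM in empty droplets. The sum of 7 endothelial markers was 25.3 CPM against 33.5 CPM in empty droplets, and that of 7 immune markers 103 CPM against 182 CPM, of which Cd74 made 89.7 CPM with 89.1% of its UMIs in 10 members. Adipocyte markers had no UMI in members, and red cell markers stood at 0.575 CPM. Smooth muscle markers were low, with Acta2 at 139 CPM against 429 CPM in other Ebf1-positive barcodes. The exception was a glial marker, S100b, at 32.8 CPM in members (57 UMIs, in 19.6% of members) against 3.94 CPM in other Ebf1-positive barcodes, while the glial gene Sox10 had 4 UMIs in all members together. The part of any of these cells in the results below was not tested beyond leaving out barcodes with 2 or more immune, endothelial or epithelial markers.

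Across the transcriptome, 145 of 5933 genes (2.44%) were at least 2-fold higher in members than in other Ebf1-positive barcodes and 156 (2.63%) at least 2-fold lower, with the 10 genes of the rule left out and at least 20 CPM asked for in either group. The median fold over these genes was 0.924. Against all other kept barcodes 318 of 6209 genes (5.12%) were higher and 473 (7.62%) lower, with a median fold of 0.859. The counts over other Ebf1-positive barcodes were 237 higher and 442 lower with every barcode thinned to 3000 UMIs. They were 576 and 337 with the profile of empty droplets subtracted at one scaling and 161 and 197 at another, chosen after the first was seen. Named below are the 25 genes with the largest fold over other Ebf1-positive barcodes, among those with at least 50 CPM, a UMI in at least 20% of members and at least 1.5-fold over all others, and the 12 lowest by the mirrored rule. The members were chosen from these same barcodes, so the folds describe them and test nothing. Counts within the gene lists below stand beside the shares of 2.44% and 2.63% over all genes. At such shares a short list with none passing shows nothing particular to it.

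A secreted regulator of BMP signals was among the leading genes. Bmper, which encodes a secreted BMP-binding regulator, stood at 77.0 CPM in members, 10.6 CPM in other Ebf1-positive barcodes and 4.64 CPM in all others, a 7.30-fold difference (5.51 to 9.72) over the Ebf1-positive group. It had a UMI in 34.9% of members and 4.88% of the other Ebf1-positive barcodes. Grem1, the BMP antagonist of crypt-base stroma, went the other way, at 94.8 CPM in members against 419 CPM (0.226-fold, 0.192 to 0.265). It was 0.362-fold with at least 2 rule genes asked for and 0.0793-fold with the empty-droplet profile subtracted at the first scaling. Of 8 measured genes of the BMP and activin antagonist list, 2 were higher, Bmper and Fst, and Fst was used by the rule. Grem1 was the 1 lower gene, and the list median was 0.949-fold.

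The BMP ligands were low in members as a group apart from Gdf10. Of 5 measured ligands, 4 were at least 2-fold lower than in other Ebf1-positive barcodes, Bmp2, Bmp4, Bmp5 and Bmp6, and only Gdf10, used by the rule, was higher. Bmp4 stood at 136 CPM against 502 CPM and 884 CPM in the 2 comparison groups, and Bmp6 at 17.2 CPM against 76.7 and 88.2 CPM. All 3 measured EGF family ligands were lower too, Ereg at 0.223-fold (0.178 to 0.277; 0.40-fold with at least 2 rule genes and 0.0592-fold with the second subtraction), Nrg1 at 16.7 CPM against 59.4 CPM and Areg at 2.30 CPM, with 4 UMIs, against 20.2 CPM. Of 2 measured R-spondins, which amplify Wnt signals in stem cells, Rspo3 was higher at 134 CPM against 59.9 CPM (2.24-fold, 1.90 to 2.62). Rspo1 stood at 77.0 CPM against 46.4 CPM, a difference of 1.66-fold that missed the threshold. Of the 9 receptors of the TGF-beta family measured, none passed 2-fold in either direction, where 2.44% and 2.63% of all genes did.

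Several transcription factor genes differed between members and other Ebf1-positive barcodes. Wt1, a regulator of mesothelial and mesenchymal development, stood at 246 CPM in members against 36.9 CPM in other Ebf1-positive and 9.09 CPM in all other barcodes (6.67-fold over the former, 5.73 to 7.77), and had a UMI in 59.3% against 9.84% and 2.07% of barcodes. Wt1 is also a mesothelial marker. Msln, with 1 UMI in members, and Upk3b, with 3, were limited by the rule, so their levels say nothing of that lining. Krt19 and Krt8, mesothelial markers outside the rule, were at least 2-fold lower in members than in all other kept barcodes. Whether members are related to that lining was not tested. Ebf2, a close relative of Ebf1, stood at 76.4 CPM against 14.6 and 2.01 CPM (5.23-fold, and 3.36-fold with the empty-droplet profile subtracted at the first scaling). Ebf1 itself differed by 1.23-fold, 594 against 481 CPM, from barcodes that had been chosen for it. Gata6 (4.59-fold) and the large homeobox gene Zfhx4 (3.89-fold) were also higher. In the opposite direction stood Foxf1 (0.402-fold), Foxf2 (0.302-fold), which mark subepithelial gut mesenchyme, and Twist1 (0.286-fold). Of 20 transcription factor genes measured, 3 passed in each direction, at a median of 1.09-fold. Against all other kept barcodes 7 were higher, with Ebf2, Gata6 and Zfhx4 among them. The 5 lower ones there took in Foxf1 and Foxf2 but not Twist1.

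Inflammatory gene lists were mixed, and some of the leading genes rested on few barcodes. Of 7 measured genes of the IL-1, IL-6 and IL-33 list, 2 were higher and none lower (median 1.82-fold). Of 6 acute phase and antimicrobial genes 2 were higher and 2 lower (median 0.696-fold), and of 6 prostaglandin genes none was higher and Hpgd was lower. Il6, which encodes interleukin 6, stood at 517 CPM against 128 and 26.3 CPM (4.03-fold, 3.68 to 4.42), with a UMI in 47.8% of members, and Socs3, the feedback inhibitor that this cytokine induces, at 2369 CPM against 1033 CPM. Lifr, a receptor chain for another cytokine of that family, stood at 75.9 CPM against 24.2 CPM (3.14-fold, and 13.3-fold with the empty-droplet profile subtracted at the first scaling). Adm, which encodes the vessel-dilating peptide adrenomedullin, reached 1019 CPM against 205 CPM (4.98-fold), and Adra1b, an adrenergic receptor gene, led the list at 59.8 CPM against 8.01 CPM (7.46-fold, 5.41 to 10.4; 3.34-fold when barcodes were thinned to 3000 UMIs and members called again). Haptoglobin (Hp) showed how uneven such genes were: it stood at 467 CPM against 67.3 CPM, but 40.2% of members had any, the highest member stood at 9408 CPM, and the 6.95-fold difference was 3.03-fold after thinning. Mmp3, a matrix protease gene, and Rnd1, a small GTPase gene, were uneven as well, with 52.2% and 48.4% of their UMIs in 10 members.

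Chemokines moved both ways. Ccl19, which attracts lymphocytes and dendritic cells, stood at 233 CPM against 38.6 CPM (6.04-fold, 5.19 to 7.03) and had a UMI in 52.2% of members. Gm2564, which lies on chromosome 4 near Ccl19 (chr4:42629719-42631714 and chr4:42754525-42756577), had a similar difference of 5.47-fold, and how reads are split between related copies in such a region is uncertain. Of the 9 CXC chemokines measured, Cxcl1, Cxcl2 and Cxcl10 were higher and Cxcl5, Cxcl9 and Cxcl13 lower. Cxcl1, a neutrophil attractant, reached 2670 CPM against 983 CPM, with a UMI in 83.7% of members, whereas 76.1% of the Cxcl2 UMIs lay in 10 members. Cxcl12, the most widely made stromal chemokine here, was found in 97.1% of members and differed by 0.787-fold.

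The hyaluronan genes Tnfaip6 and Has1 were high, and they act on the same loose matrix as pentraxin 3. Tnfaip6, whose product loads proteins onto hyaluronan and binds pentraxin 3, stood at 2243 CPM against 851 and 299 CPM (2.64-fold, 2.53 to 2.74). Has1, a hyaluronan synthase, stood at 930 CPM against 399 and 67.1 CPM (2.33-fold). Has2, with 40 UMIs in members, differed by 1.69-fold, so that 2 of 5 measured hyaluronan genes passed and none was 2-fold lower, at a list median of 1.69-fold. Against all other kept barcodes the same 2 of 6 measured genes were higher and Hapln1 was lower, at a median of 1.36-fold. Of 13 fibrillar and associated collagens none was higher, where 2.44% of all genes were, and the median was 0.718-fold. Col8a1 was lower (0.195-fold, 27.0 against 138 CPM), at 0.339-fold with at least 2 rule genes and 0.0635-fold with at least 4. Col12a1 (0.340-fold) was lower too. Sned1, a matrix protein gene, was an exception among matrix genes at 302 CPM against 46.9 CPM (6.44-fold, 5.63 to 7.38). It was less uneven than Ptx3, with 18.8% of its UMIs in 10 members, and its difference was 4.22-fold after thinning.

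Metabolic genes of retinoids and lipids were also among those higher than in other Ebf1-positive barcodes. Aldh1a2, which makes retinoic acid, stood at 176 CPM against 38.1 CPM (4.63-fold), and Cyp26b1, which breaks it down, at 20.7 CPM against 4.58 CPM, with 36 UMIs in all. Of 10 retinoid and aldehyde genes measured these 2 were higher and none lower. Against all other kept barcodes 4 were higher, these 2 among them, and 2 lower, Rbp4 and Rarres2. Angptl4, an inhibitor of lipoprotein lipase, stood at 366 CPM against 77.0 CPM, and Lpl, the lipase itself, at 990 CPM against 365 CPM. Apoe was 2.43-fold higher, and Fabp4 was 20.8-fold higher, though 90.4% of its 83 UMIs lay in 10 members. Of 7 lipid genes 3 were higher and 1, Fmo2, lower. Against all other kept barcodes 2 were higher, Fabp4 and Apod, so that Lpl and Apoe did not pass there.

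The remaining leading genes were of mixed function. Penk, which encodes the precursor of enkephalin peptides, stood at 216 CPM against 62.2 CPM, Myc at 246 CPM against 53.0 CPM, and Dapk2, a death-associated kinase gene, at 52.3 CPM against 9.79 CPM. Ifi205 (4.34-fold) and Ifi207 (4.12-fold, and 2.73-fold after that subtraction) belong to an interferon-inducible family with close copies, so that their separate values are uncertain. Slfn5, Itm2a, Cpxm1 and the noncoding Gm12840 were between 3.14-fold and 3.73-fold higher. The 12 interferon and antigen presentation genes measured had a median of 0.804-fold, however, and Ifit1 was the 1 gene of them that was higher.

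Immediate early genes, whose transcripts appear within minutes of stress or of tissue dissociation, were high but not beyond the Ebf1-positive group by 2-fold. Their sum was 32226 CPM in members, 23370 CPM in other Ebf1-positive barcodes and 13098 CPM in all others. None of 13 passed 2-fold against the Ebf1-positive group (median 1.42-fold), and 9 of 13 did against all others (median 2.64-fold). The part of dissociation in the levels of Il6, Socs3, Myc and Cxcl1 was not tested. Of 8 glucocorticoid response genes, Sgk1 (2.00-fold) and Mt1 (2.08-fold) were higher.

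Markers of lamina propria fibroblasts and of smooth muscle were low in members. All 5 measured lamina propria fibroblast markers were lower, Adamdec1 at 703 CPM against 1910 and 4572 CPM, and Kcnk2, Ces1d, Edil3 and Bmp4 with it. Of 7 measured myofibroblast and smooth muscle markers, 6 were lower and Des higher, Tagln at 69.5 CPM against 323 CPM. Markers of other stromal subsets were mixed. Of 8 markers of Pi16 adventitial fibroblasts, Has1 was higher and Npy1r lower (median 1.10-fold), and of 8 of CD34+CD81+ fibroblasts, Rspo3 was higher and Ackr4 and Grem1 lower (median 1.17-fold). The other named lower genes were Alpl, C1qtnf3, Saa3, Scube1, Lepr and Tmtc2, from 0.219-fold to 0.263-fold; with the empty-droplet profile subtracted at the first scaling Alpl and Tmtc2 were 0.0183-fold and 0.0380-fold and the other 4 were at 0 in members, and Saa3 was 0.531-fold after thinning. Igkc, an immunoglobulin gene of plasma cells, was the lowest at 0.0785-fold, and it stood at 1076 CPM in empty droplets, more than in any group. Without barcodes with 2 or more immune, endothelial or epithelial markers it was 0.541-fold. Of 4 measured genes of the MAP3K2-ERK5 route none passed, where 2.44% and 2.63% of all genes did. Map3k2 stood at 27.6 CPM against 39.0 CPM.

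**Figure D2:**
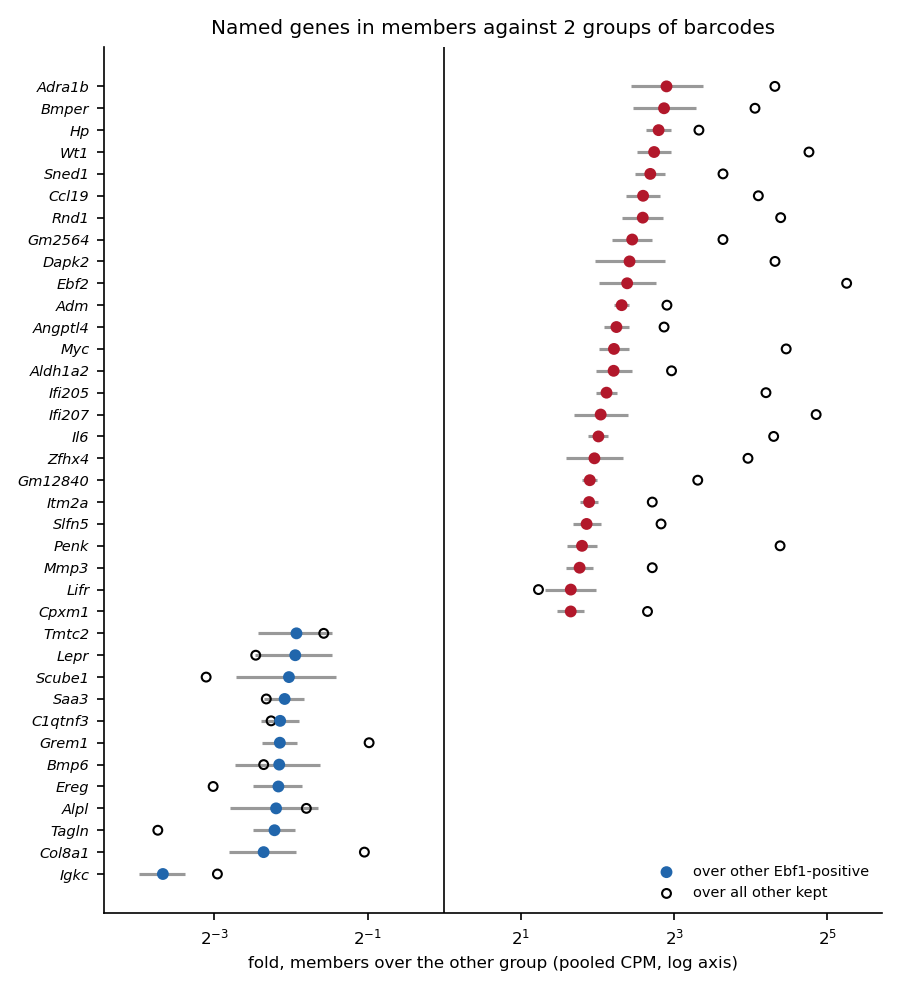
Fold of pooled CPM, on a log axis, for the 25 genes named as higher and the 12 named as lower in members. Filled points with 95% counting intervals are against other Ebf1-positive barcodes (red above 1, blue below) and run from 0.0785 for Igkc to 7.46 for Adra1b, and open points are against all other kept barcodes.

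The levels of several of these genes were also ordered by the number of rule genes detected, below the threshold too. Wt1 stood at 0.956 CPM in barcodes with none of the 6 genes, at 15.7 CPM with 1, 105 CPM with 2, 210 CPM with 3, 296 CPM with 4 and 293 CPM with 5. Sned1 went from 30.2 CPM with 1 to 100.2 CPM with 2 and 427 CPM with 5, and Tnfaip6 from 508 to 1248 and 3456 CPM. For Wt1, Sned1 and Tnfaip6 the barcodes with 2 genes, just outside, lay between the members and the rest. Wt1 and Sned1 had been picked as high in members, so part of this order is built in. Hp did not follow it, at 96.0 CPM with 1 gene, 86.9 CPM with 2 and 435 CPM with 3. Pi16, a marker of adventitial fibroblasts, had another order, at 47.8 CPM with none, 912 CPM with 2, 896 CPM with 3, 363 CPM with 4 and 320 CPM with 5. Grem1 peaked at 298 CPM with 1 gene and stood at 58.1 CPM with 4. Depth also grew along this order, from a median of 6001 UMIs with none to 10686 UMIs with 5, and its part in the gradient was not tested; CPM is scaled to the total of each group.

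**Figure D3:**
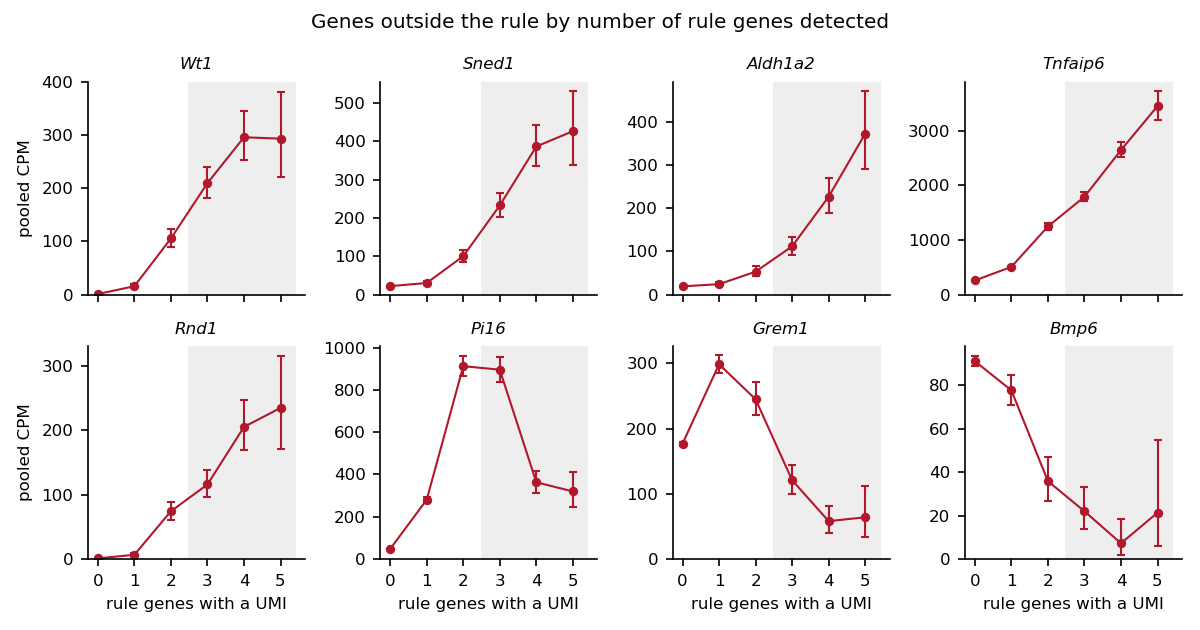
Pooled CPM (vertical axis) of 8 genes that the rule did not use, by number of rule genes with a UMI (horizontal axis, 0 to 5), with 95% Poisson intervals; grey marks members. Wt1, Sned1, Aldh1a2, Tnfaip6 and Rnd1 are higher in members than at 0, and Pi16 is highest at 2 and 3 genes and lower at 4 and 5.

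The members lay close together in the transcriptome even when the 10 genes of the rule were left out of the embedding. Of the 15 nearest neighbours of a member, 57.0% were members on average, against 6.42% for the other Ebf1-positive barcodes and 1.84% of all kept barcodes. A single cluster of 1361 barcodes held 205 of the 209 members (98.1%), and they made 15.1% of it. It also held 937 of the 1230 other Ebf1-positive barcodes. At a finer resolution 190 members lay in a cluster of 463 barcodes, of which they made 41.0%, and 15 in another of 886. Among barcodes with none, 1, 2 and 3 of the 6 genes, 6.43%, 35.3%, 87.7% and 97.7% lay in the main cluster.

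Against the other 1156 barcodes of that main cluster several leading genes had a difference of similar size, and others fell below 2-fold. Of these 1156, 937 belong to the other Ebf1-positive barcodes over which the leading genes were picked. The comparison thus largely repeats the one that chose them. Wt1 was 6.26-fold higher (5.35 to 7.32), Bmper 6.61-fold, Sned1 5.97-fold, Ccl19 5.07-fold and Aldh1a2 4.81-fold. Col8a1 was 0.145-fold and Grem1 0.204-fold. Has1 (1.89-fold), Rspo3 (1.92-fold) and Socs3 (1.99-fold), each over 2-fold against other Ebf1-positive barcodes, were below it here. Several genes were level within the cluster: Ebf1 (1.17-fold), Cd34 (0.917-fold), Cd81 (1.10-fold) and Pi16 (0.895-fold) differed little between members and the rest of it. Igkc, at 0.831-fold (0.658 to 1.04), did not differ beyond counting error inside the cluster. Tagln, at 0.551-fold, also lost its 2-fold difference there.

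Each of the 6 genes was more often found in barcodes with others of the set than in barcodes with none. The genes were chosen as a set with these data known, so the shares describe them and test nothing. Of barcodes with none of the 6 genes 6.43% lay in the main cluster, against 97.7% of those with 3. Among barcodes with 3 or more of the other 5 genes, Inmt had a UMI in 66.1% (112 barcodes), against 1.93% of the 10161 barcodes with none of them. The same shares were 58.1% against 1.11% for Gdf10, 42.5% against 2.59% for Ptx3, 41.4% against 1.13% for Fst and 36.4% against 1.87% for Ptn. For Myoc they were 5.06% (9 of 178, 2.34% to 9.38%) against 0.370%, and 14.7% (10.2% to 20.2%) where 2 of the other 5 were found. At 3000 UMIs the share was lower with 3 or more than with 2 of the others for Myoc (2.17% against 10%), Ptn (18.8% against 30.9%) and Ptx3 (26.4% against 31.8%), with overlapping intervals for each. For Inmt, Gdf10 and Fst the 2 shares were within 2 percentage points of each other. These shares follow depth as well, since barcodes with 3 or more of the others had medians of 7880 to 9346 UMIs.

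At equal depth Myoc and the Ptx3-Fst pair were largely in different barcodes. In the main cluster thinned to 3000 UMIs (1118 barcodes), Myoc was found in 58, Ptx3 in 167 and Fst in 122. Ptx3 and Fst shared 54 barcodes, so that 44.3% of Fst-positive and 11.3% of Fst-negative barcodes had Ptx3. Myoc shared 4 barcodes with Ptx3 (6.90% of Myoc-positive, 15.4% of Myoc-negative barcodes) and 1 with Fst (1.72% against 11.4%). Ptn was the partner of Myoc, found in 43.1% of Myoc-positive and 15.4% of Myoc-negative barcodes. Inmt and Gdf10 shared 78 barcodes. Inmt was found in 36.2% of Myoc-positive against 18.2% of Myoc-negative and in 36.5% of Ptx3-positive against 16.1% of Ptx3-negative barcodes. Gdf10 was found in 23.4% of Ptx3-positive against 13.0% of Ptx3-negative barcodes, and in 19.0% of Myoc-positive against 14.3% of Myoc-negative barcodes, a difference resting on 11 barcodes.

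**Figure D4:**
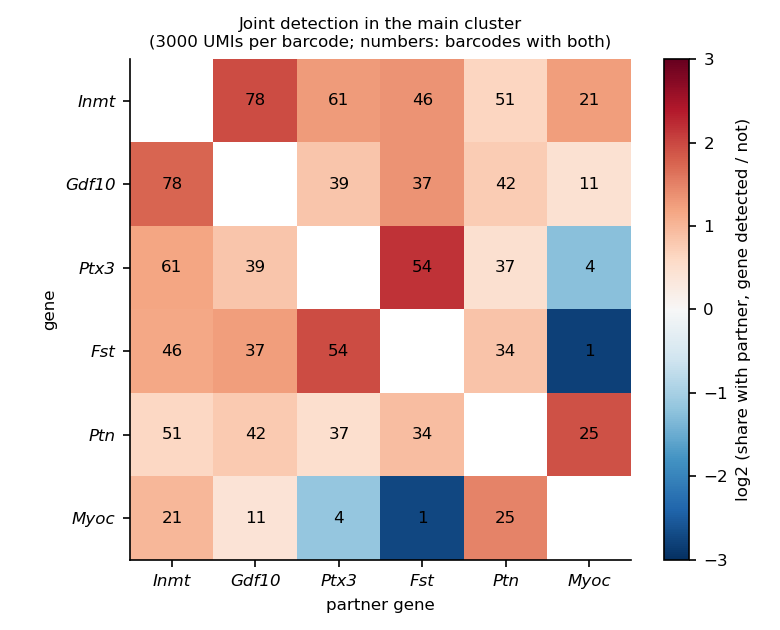
Joint detection of the 6 rule genes in 1118 barcodes of the main cluster thinned to 3000 UMIs; each square gives the number of barcodes with both genes, and its colour the log2 ratio of the share with the partner (columns) in barcodes with the gene (rows) over those without. Myoc shared 1 barcode with Fst and 4 with Ptx3, against 25 with Ptn.

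The 40 members with Myoc also differed from the 169 without it in genes outside the rule, which were picked by size after their values were seen. Members with Myoc were shallower, with a median of 5435 against 8679 UMIs. Fgf9, a fibroblast growth factor gene, stood at 80.5 against 5.32 CPM (15.1-fold), Ramp1, a receptor chain for the peptide CGRP, at 127 against 9.97 CPM, and Cilp, a cartilage matrix gene, at 538 against 106 CPM (5.09-fold). Lepr, which was low in members as a whole, stood at 80.5 against 11.3 CPM, on 19 and 17 UMIs. Pi16 was 2.04-fold higher with Myoc. On the other side, Hp stood at 29.7 CPM with Myoc against 536 CPM without, Rnd1 at 12.7 against 180 CPM, and Aldh1a2 at 38.2 against 198 CPM. Tnfaip6 (0.385-fold) and Has1 (0.354-fold) were lower with Myoc too, whereas Fgf9 and Ramp1 rested on 27 and 45 UMIs in all members.

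Members with Ptx3 differed in several of the same genes, in the other direction. The 2 splits are not independent, since 11 of the 40 members with Myoc also had Ptx3. Of those 40, 31 had just 3 rule genes, and the part of rule gene number in either split was not tested. The 121 members with Ptx3 had 15.8-fold more Rnd1 (8.43 to 33.2), 3.68-fold more Il6, 3.64-fold more Hp, 2.89-fold more Bmper, 2.70-fold more Has1 and 2.32-fold more Tnfaip6 than the 88 without it. Their median depth was 9188 against 7546 UMIs. Pi16 was lower in members with Gdf10 (0.397-fold) and with Ptn (0.447-fold). The split was made within members, so levels of the other rule genes in it are set in part by the rule and are not given. In the thinned main cluster, Ptn was found in 22.2% of Ptx3-positive and 15.9% of Ptx3-negative barcodes.

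Open chromatin at the genes of the members was read from the deposited peak lists of the sorted populations. Peaks numbered 177054 in MRISC, 143411 in CD34 SP, 216805 in CD34-CD138+ and 179351 in Myofibroblast, with 1 list for both libraries of a population, so no spread between libraries can be given and the depth is unknown. The background is high: of 5884 protein-coding genes measured in the comparison with other Ebf1-positive barcodes, 98.8% had a peak within 1 kb of a start in MRISC, 98.8% in CD34 SP, 98.4% in CD34-CD138+ and 97.3% in Myofibroblast. Of the 24 protein-coding genes among the 25 higher ones, 21, 20, 18 and 16 had such a peak, in the same order, below the background in each list. Of the 6 rule genes 5, 5, 3 and 3 had one. The single cells came from a female given DSS, and the sorted cells from males with no DSS labelled. Since the lists differ in length as well, these counts say nothing of a change.

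Gdf10 and Inmt had start peaks in MRISC and CD34 SP and none within 1 kb in CD34-CD138+ or Myofibroblast. For Gdf10 that rests on the distance, since peaks of CD34-CD138+ and Myofibroblast were centred 1196 and 1585 bp downstream of the start, and within 2 kb all 4 lists had one. With the upper part of each list by score, neither gene kept its start peak in CD34 SP. At Gdf10 the MRISC peak was 741 bp wide (chr14:33923109-33923849) and covered the whole printed promoter, and the CD34 SP peak was 118 bp wide (chr14:33923476-33923593). By the authors' score the MRISC peak of Gdf10 stood at the 92.0 percentile of its own list, and the CD34 SP peak at the 20.3 percentile of its list. The Inmt promoter was covered by an MRISC peak of 661 bp (chr6:55174770-55175430), which takes in both copies of the repeat, and by a CD34 SP peak of 281 bp. Within the gene and 10 kb on either side, Inmt had 12, 4, 6 and 3 peaks and Gdf10 9, 1, 5 and 7, in MRISC, CD34 SP, CD34-CD138+ and Myofibroblast.

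Ptx3 had start peaks in all populations but Myofibroblast, and peaks over the printed promoter in MRISC and CD34 SP. Fst and Ptn had start peaks in all 4. The Myoc promoter printed above had no peak in any list, and the peak that counts as a start peak in Myofibroblast lay 746 bp downstream of the start, in an exon. Wt1, not used by the rule, had start peaks in MRISC and CD34 SP and none in the other 2 lists, with 15, 4, 7 and 6 peaks in its window. Cpxm1 had the same pattern. No list had a start peak for Ccl19, Gm2564 or Hp. Mmp3 and Itm2a lacked one in Myofibroblast only, Penk in CD34-CD138+ only, and Ifi207 in CD34 SP and Myofibroblast.

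**Figure D5:**
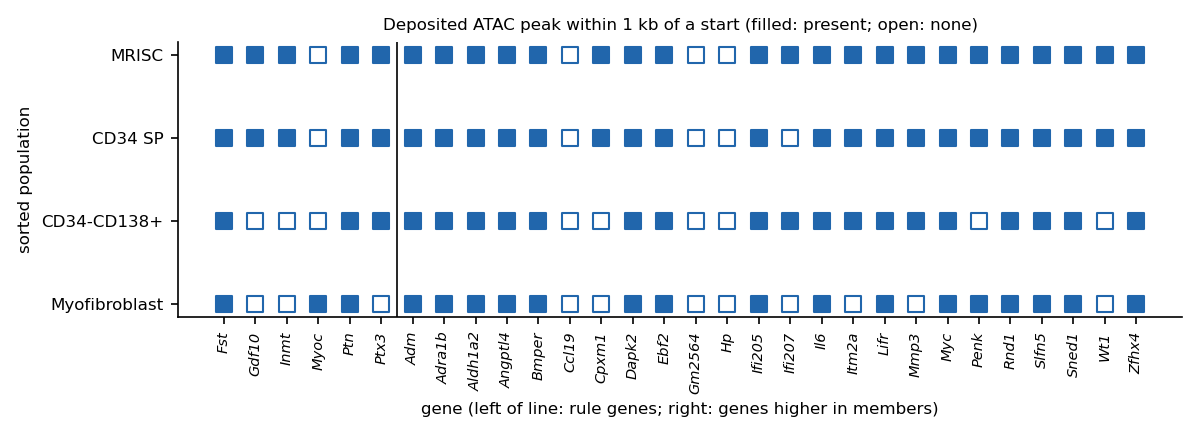
Presence (filled) or absence (open) of a deposited ATAC-seq peak within 1 kb of a transcription start, for the 6 rule genes and the 24 protein-coding genes among those higher in members (horizontal axis), in 4 sorted populations (vertical axis). Gdf10, Inmt, Wt1 and Cpxm1 are filled for MRISC and CD34 SP and open for the other 2 populations.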

How the data were processed

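The deposited single-cell values are raw UMI counts, whole numbers for each gene in each barcode, from 10x Genomics 3' chemistry. The submitters' processing notes name bcl2fastq, Cell Ranger, Seurat and build mm10; software 3.0.0 stands in the file header. For ATAC-seq the authors deposited 1 score per peak, on mm10 as well. Neither the caller nor the meaning of the score, nor how libraries were combined, is given in the sources used here, so scores served only for percentiles within a list.

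The members and all gene lists were chosen with earlier results of these data known. Of 11484 barcodes in the filtered matrix, with 31053 genes, 11376 were kept (72920197 UMIs). Doublets were not removed. Counts were pooled per group as CPM with exact 95% Poisson intervals, folds with exact conditional binomial intervals and shares with Clopper-Pearson intervals. A gene was called at 2-fold with at least 20 CPM in either group. The rule for named genes stands with the results. Thinning to 3000 UMIs left out 13 members, 148 other Ebf1-positive and 723 of all other barcodes. Empty droplets were 546978 barcodes with 1 to 100 UMIs. The plan to subtract their profile set no scaling: the first was by immune, epithelial and red cell markers, and a second, by epithelial markers alone, was chosen after the outcome of the first was seen. The embedding (scanpy 1.11.5, counts scaled to 10000 per barcode, 2000 variable genes, 30 principal components, 15 neighbours, Leiden resolution 0.5 with leidenalg 0.10.2) left out the 10 genes of the rule. Gene calls and intervals were tested on simulated data in which all barcodes of a group shared the same profile. Such data lack the unevenness between members seen here, so the test does not cover uneven genes. Gene starts and exons were those of GENCODE vM21 (GRCm38). Of the list genes, 4 were matched through RefSeq synonyms. Some genes of the lists are not reported here.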

Additional observations from a re-analysis of the deposited data

How the results depend on the processing

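All barcodes came from 1 mouse library, so every interval covers counting error and none the spread between animals. No paired analysis was possible because the result comes from no test. Subtracting the profile of empty droplets moved all 4 counts of genes 2-fold from a comparison group when scaled by immune, epithelial and red cell markers. It took free RNA to be at most 31.6% of the UMIs of members, 60.1% of those of other Ebf1-positive and 58.6% of those of all other barcodes, and gave 576 higher and 337 lower genes over other Ebf1-positive barcodes and 620 and 1093 over all others. That scaling was not set in advance, and cells in the groups may make some of these markers themselves. A scaling by epithelial markers alone, chosen after this outcome was seen, took 10.8%, 22.5% and 45.6% and gave 161 and 197, and 442 and 632. Which of them is nearer to the free RNA present was not tested, and the counts depend on it. Members were 0.703% of kept barcodes (80) with at least 4 of the 6 genes asked for, 3.76% (428) with at least 2, and 1.01% (107) at 3000 UMIs per barcode. The median depth of members over other Ebf1-positive barcodes, 1.39-fold, was 1.53-fold with at least 4 genes and 1.26-fold with at least 2, and thinning gives no value for it. The counts over other Ebf1-positive barcodes were 237 higher and 442 lower at 3000 UMIs, 72 and 79 with 50 CPM asked for, and 314 and 510 at 1.5-fold, and the lower genes numbered 300 with at least 4 rule genes and 94 with at least 2. Over all other barcodes they were 203 and 240 at 50 CPM and 495 and 1149 at 1.5-fold, with 888 lower at 3000 UMIs. At that depth the share with each rule gene among barcodes with 3 or more of the other 5 was 26.4% for Ptx3, 18.8% for Ptn, 43.2% for Inmt, 30.5% for Gdf10, 2.17% for Myoc and 25% for Fst. With the upper part of each peak list by score, 2 rule genes had a start peak in CD34 SP and 1 in CD34-CD138+, and within 2 kb 5 had one in Myofibroblast. The cause of these changes was not tested. None of the 43 named folds changed direction under the 11 alternatives run on them, except that Ereg and Tagln gave no fold under the first subtraction, where both groups were at 0. The 43 are the 6 rule genes, whose direction the rule sets, and the 25 and 12 genes picked as most extreme in these barcodes. A change of direction was thus unlikely from the start, and its absence tests nothing. Over 1.5 times moved 15 folds with at least 2 rule genes, 13 and 7 under the 2 subtractions, 8 at 3000 UMIs and 6 with at least 4 rule genes. All 25 named higher genes stayed at least 2-fold higher, and of the lower genes Igkc (0.541), Saa3 (0.531) and Tagln (0.532) each passed 0.5-fold under 1 alternative.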

Other observations

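Other secreted factors than those described also differed between members and other Ebf1-positive barcodes; the genes named here were chosen after their values were seen. Fgf18, a fibroblast growth factor gene, stood at 41.4 CPM in members against 15.8 CPM (2.63-fold, 1.94 to 3.54), and Slit2, which encodes a guidance protein for axons and vessels, at 37.9 CPM against 9.28 CPM (4.09-fold) with a UMI in 25.4% of members. Efemp1, an elastic fibre protein gene, was 2.10-fold higher and found in 87.6% of members and 85.3% of all other barcodes. Il33, which encodes an alarmin of barrier tissues, stood at 320 CPM against 168 CPM and 30.4 CPM, below 2-fold over the Ebf1-positive group and 10.5-fold over all others. Dkk2, a Wnt antagonist gene, was 31.6-fold higher on 35 UMIs, of which 88.6% lay in 10 members.

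The pentraxin and complement list held 13 measured genes, of which Ptx3, used by the rule, and Clu were higher and none lower. C3, the central complement protein, stood at 4347 CPM in members, 2702 CPM in other Ebf1-positive and 769 CPM in all other barcodes. Steap4, a metalloreductase gene, stood at 268 CPM against 92.8 CPM (2.89-fold, 2.56 to 3.25) with a UMI in 67.0% of members, while the acute phase genes Saa3 and Serpina3g were lower. Clu, with 72 UMIs, was higher in members with Ptn (2.32-fold) and lower in those with Ptx3 (0.264-fold).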
